A study of Mus musculus with 8 samples.

Results

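Nonsense-mediated decay (NMD) factors are the 9 genes Upf1, Upf2, Upf3a, Upf3b, Smg1, Smg5, Smg6, Smg8 and Smg9. They were taken by symbol, and all 9 were found among the 39017 genes of the expression table and among the 16250 genes tested. RNA-seq was done on iGBs, germinal center-like B cells raised by plating mouse splenic B cells on 40LB feeder cells, which are fibroblasts that supply CD40L and BAFF, in the presence of IL-4 at 1 ng/mL. The cells were harvested at day 4, freed of feeder cells by elutriation, and their RNA was depleted of rRNA. There were 4 Prmt5-null cultures (Prmt5 F/F Cγ1-cre, mice 10617, 10618, 10770 and 10771) and 4 control cultures (Cγ1-cre, mice CTRL-10650 and CTRL-10370, then CTRL-10596 with CTRL-10597), all of strain C57BL6/J, and values are given in this order. Controls carry the Cre as well, and Cγ1-cre deletes the floxed gene only once B cells are activated, so Prmt5 is present until then. Prmt5 is the main enzyme that adds symmetric dimethyl marks to arginines, and Sm proteins of the spliceosome are among its substrates.

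NMD removes mRNAs on which ribosomes stop too early, many of them made by splicing that shifts the reading frame or keeps an intron. UPF1 is the RNA helicase at its center, UPF2 bridges it to UPF3A or UPF3B, which contact the exon junction complex left by splicing, and SMG1 is the kinase that phosphorylates UPF1 under the control of SMG8 and SMG9. SMG6 then cuts the mRNA, while SMG5 acts as an adaptor for decapping and deadenylation. The mRNAs of Upf1, Upf2, Upf3b, Smg1, Smg5 and Smg6 are themselves substrates of the pathway in the textbook view, so that their levels are often read as a feedback signal.

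Of the 9 factors, Upf3a rose 1.34-fold in Prmt5-null iGBs. It was the only one called at an adjusted p below 0.05 (limma; 11.1%, against 13.8% of all genes tested). No factor was called when a change of at least 1.5-fold was also required, against 6.48% of all genes. The 6 feedback-type factors had a median log2 fold change of -0.01, none of them called by limma. Of these 6, 1 (Upf3b) had an unadjusted p below 0.05 (limma), against 29.3% of all genes. None of the 9 genes had an event in the deposited splicing tables, against 11.4% of genes with a mean normalized count above 50. With only 9 genes, these counts do not set the factors apart from all genes.

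The retained introns annotated for Upf3a are shown because they make up most of the exonic bases over which its reads may have been counted. In GENCODE M21 (build GRCm38), Upf3a lies on chromosome 8 from 13785615 to 13799193 on the plus strand, with 8 introns in its coding transcript. In all, 2 annotated transcripts hold part of an intron, and 3808 of its 5865 exonic bases (64.9%) are found only in such transcripts. That share is at percentile 98.0 of 12493 protein-coding genes. The 5′ splice sites of these 2 introns, read 5′ to 3′ from the transcript sequences with the last 3 exon bases in lower case and the first 6 intron bases in capitals, are:
Upf3a intron 2: cagGTGAGG
Upf3a intron 5: tggGTCTGT
The first, of an intron of 1111 bases of which 784 are held, matches 7 of 9 bases of the consensus CAGGTAAGT. The second, at the start of the intron at chr8:13792211-13795439, matches 5, and 3024 of its 3229 bases are held. Among 14731 such 5′ splice sites in 6352 tested genes the median was 6 matches, and 22.2% had 5 or fewer.

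The other members differed in this respect. Retained-intron transcripts alone hold 35.5% of the exonic bases of Smg9, 32.7% of Smg5, 32.2% of Smg1 and 24.3% of Smg6, and 0 bases of Upf1, Upf2, Upf3b and Smg8. In all, 12 such 5′ splice sites were found in 5 members, with a median of 7 matches. The lowest in the other 4 genes was 6, as at Smg9 intron 6 (gagGTGAGG) and Smg5 intron 4 (tggGTGAGT), against 7 at Smg9 intron 3 (cggGTGAGT), Smg5 intron 12 (cagGTGCGT) and Smg6 intron 10 (aagGTAAGG). The release of the annotation used for counting is not given in the sources used here, and one value per gene does not separate exon from intron reads. Whether the higher Upf3a count lies in exons or introns was not tested.

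Upf3a and Upf3b are paralogs, and the 250 bases before their RefSeq starts (GRCm38.p6) are shown so that the pair can be compared. They run 5′ to 3′ on the strand of the gene, chr8:13785365-13785614 on the plus and chrX:37110323-37110572 on the minus strand. Capitals mark matches on either strand to the GC box GGGCGG, the CCAAT box CCAAT and the YY1 motif AAGATGGC:
Upf3a: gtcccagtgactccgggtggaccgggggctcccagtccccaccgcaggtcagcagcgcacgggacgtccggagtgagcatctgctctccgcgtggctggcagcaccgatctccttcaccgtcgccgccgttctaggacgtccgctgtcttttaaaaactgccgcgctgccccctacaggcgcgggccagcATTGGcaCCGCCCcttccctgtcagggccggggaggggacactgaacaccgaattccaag
Upf3b: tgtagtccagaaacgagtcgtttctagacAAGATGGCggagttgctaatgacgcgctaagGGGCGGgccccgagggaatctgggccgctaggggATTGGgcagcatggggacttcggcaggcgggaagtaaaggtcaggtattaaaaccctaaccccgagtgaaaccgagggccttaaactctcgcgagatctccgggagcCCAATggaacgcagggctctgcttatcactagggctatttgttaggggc
Upf3a held 1 GC box and 1 CCAAT box, and Upf3b held 1 GC box, 2 CCAAT boxes and 1 YY1 match. A GC box was found in 7 of 9 members and in 32.7% of 32851 promoters of that length, a CCAAT box in 4 of 9 and 33.8%, and the YY1 letters in 1 of 9 and 1.56%. The 9 promoters had a median of 23 CpG dinucleotides, against 6 over all. The 32851 promoters were not limited to genes expressed in iGBs. These contrasts therefore do not set the NMD factors apart from other expressed genes. No binding was measured in these samples, and the matches are a description of the letters only.

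Prmt5, the deleted gene, was checked first. It had 1291, 1994, 1060 and 1808 normalized counts in the Prmt5-null and 13087, 11084, 11657 and 11267 in the control libraries, a log2 fold change of -2.98 (SE 0.17, adjusted p = 6.14e-06, limma). The 8 libraries held 36731721 to 50366174 reads on genes. A normalized count is the number of reads of a gene divided by the size factor of its library. B cell markers summed to 186484 to 222305 normalized counts in Prmt5-null and 188261 to 209153 in control libraries, so their sum fits the label. The 6 T cell markers summed to at most 41.5 and 5 myeloid markers to at most 718. Single B cell markers differed by genotype. Of 9, Cd79a fell (log2 fold change -0.74, adjusted p = 0.000327, limma) and Fas rose (0.47, adjusted p = 0.00504, limma). Over all genes, 7.33% were called lower and 6.51% higher. Cd79a also passed 1.5-fold, against 2.99% of all genes called lower. The 12 fibroblast markers, which feeder cells would add, summed to 5727 to 10095 in Prmt5-null against 3624 to 6432 in control libraries. None was at 0 in all libraries. All 10 tested had a positive log2 fold change, with a median of 0.74. Of these 10, 3 (Col1a2, Col3a1 and Sparc) were called higher by adjusted p (limma), against 6.51% of all genes. The part of these cells in any difference reported here was not tested, and in bulk RNA fewer cells of a type and less RNA per cell cannot be told apart.

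The level of the 9 factors was compared per length, as normalized counts per kilobase of exonic bases. In control iGBs Upf1 was highest with 1454 ± 97.6 (SD, n = 4), followed by Smg5 with 915 ± 63.9, Upf2 with 706 ± 48.6, Upf3b with 568 ± 75.8, Smg1 with 522 ± 80.4, Smg8 with 457 ± 18.2, Smg9 with 360 ± 15.9, Smg6 with 281 ± 23.8 and Upf3a with 200 ± 6.47. Upf3b, Smg1 and Smg8 overlapped in their ranges over the 4 libraries, while every other pair of neighbors in this order was separated. The median of 15966 tested genes with a length was 241, so all members except Upf3a were above it. This order depends on the annotation. The same counts were also divided by the length without bases found only in retained-intron transcripts. Upf3a then stood at 570 ± 18.4, beside Upf3b at 568, and Smg5 stood at 1360, overlapping Upf1. Smg1 stood at 770, above Upf2 at 706, Smg9 at 557 and Smg6 at 371. Reads on the dropped bases were not removed, so the values that changed are upper limits.

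The helicase Upf1, encoded on chromosome 8 from 70331525 to 70353278 on the minus strand, had 6533, 6859, 6425 and 6975 normalized counts in the Prmt5-null libraries and 7024, 6046, 6843 and 6938 in the control libraries. The lowest and the highest of the 8 values were both controls, and the groups overlapped. The means were 6698 ± 261 and 6713 ± 451 (SD, n = 4), a fold of 0.999 with a 95% interval from 0.895 to 1.12 (adjusted p = 0.992, limma). Upf1 shares 68 exonic bases with Cers1 and 63 with Gdf1 on the opposite strand, and the strand setting of the counting is not given in the sources used here.

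Upf2, the bridge between UPF1 and the UPF3 proteins (chromosome 2, 5951469 to 6056703, plus strand), had 3637, 3970, 3158 and 3756 normalized counts without Prmt5 and 3894, 3526, 3872 and 4176 in controls. Prmt5-null 10770 was the lowest library and control CTRL-10597 the highest, with overlap in between. The fold was 0.937 (95% interval 0.822 to 1.07, adjusted p = 0.513, limma).

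Upf3a had 1605, 1578, 1644 and 1469 normalized counts in Prmt5-null iGBs and 1201, 1118, 1174 and 1196 in controls. All 4 Prmt5-null libraries lay above all 4 controls, and the spread within each genotype was small. The means were 1574 ± 74.6 and 1172 ± 37.9 (SD, n = 4), a log2 fold change of 0.42 (SE 0.08) or 1.34-fold, with a 95% interval from 1.20 to 1.5 and an adjusted p = 0.00361 (limma). The exact two-sided permutation p was 0.0286, the smallest that 4 against 4 libraries can give and the same as for Smg9, which was not called. The log2 fold change stayed between 0.40 and 0.46 over the alternatives run, with an adjusted p of at most 0.0133.

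Upf3b, the X-linked paralog (chromosome X, 37091678 to 37110322, minus strand), had 2589, 3355, 2283 and 2937 normalized counts in Prmt5-null and 1831, 2391, 2517 and 2355 in control libraries. Of 4 Prmt5-null libraries, 3 were above every control, and 10770 was below 3 controls. The fold was 1.22 (95% interval 1.01 to 1.49), with an unadjusted p = 0.0428 and an adjusted p = 0.155 (limma), so it was not called. Its log2 fold change was 0.38 without Prmt5-null 10770 (adjusted p = 0.0508, limma), and 0.19 without control CTRL-10650 (adjusted p = 0.352, limma).

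**Figure D1:**
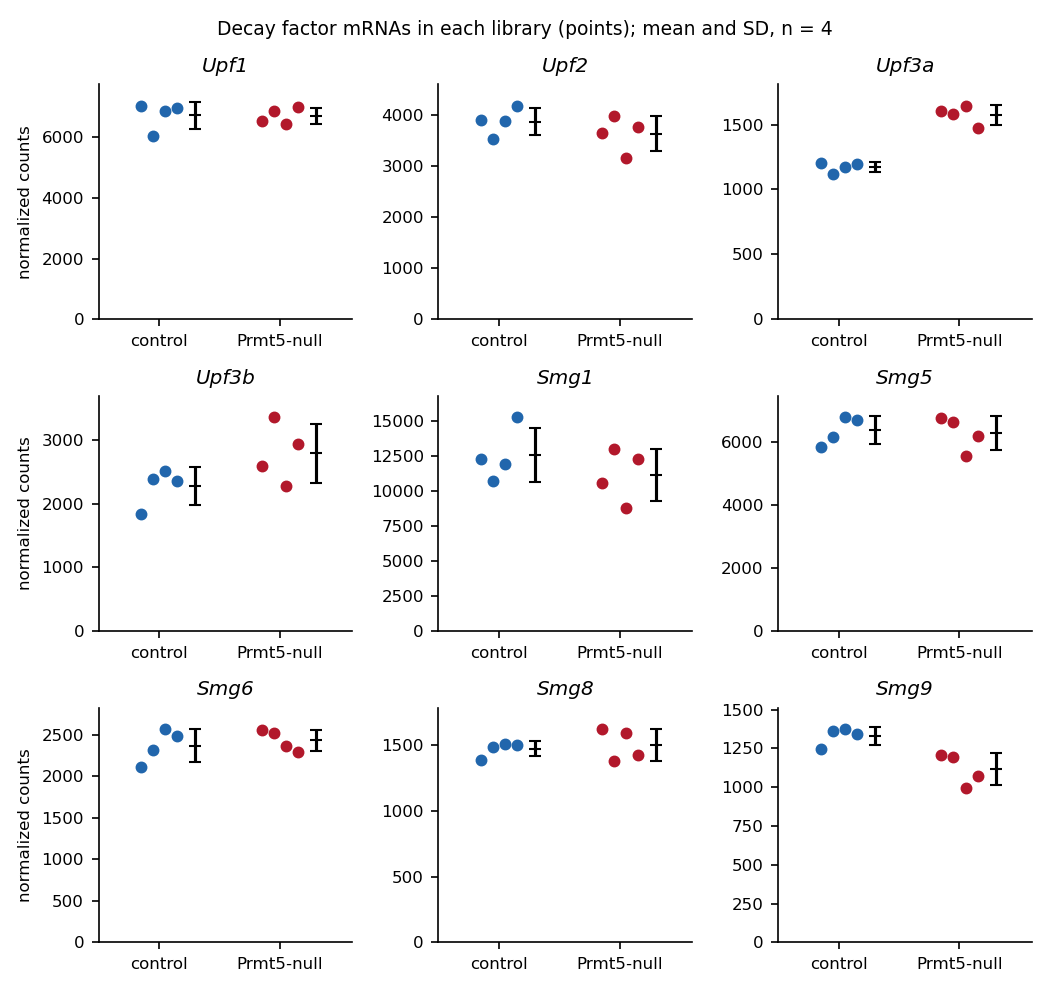
Normalized counts (y axis, from 0) of the 9 factors in each of the 4 control (blue) and 4 Prmt5-null (red) libraries, with the mean and SD beside each group. Upf3a is separated upward in Prmt5-null libraries and Smg9 downward, while the other 7 overlap.

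As Upf3a and Upf3b are paralogs, their ratio was taken within each library, where no scaling between libraries enters. Whether their proteins act alike in these cells was not tested. The quotient of Upf3a to Upf3b normalized counts was 0.620, 0.470, 0.720 and 0.50 in Prmt5-null and 0.656, 0.468, 0.466 and 0.508 in control libraries. The ranges overlapped almost entirely. The difference of the log2 ratio was 0.13, with an exact two-sided permutation p = 0.486. The p missing the threshold does not show that the ratio was the same, since the ratio varied by up to 0.28 (SD of the log2 ratio, Prmt5-null) between mice.

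**Figure D2:**
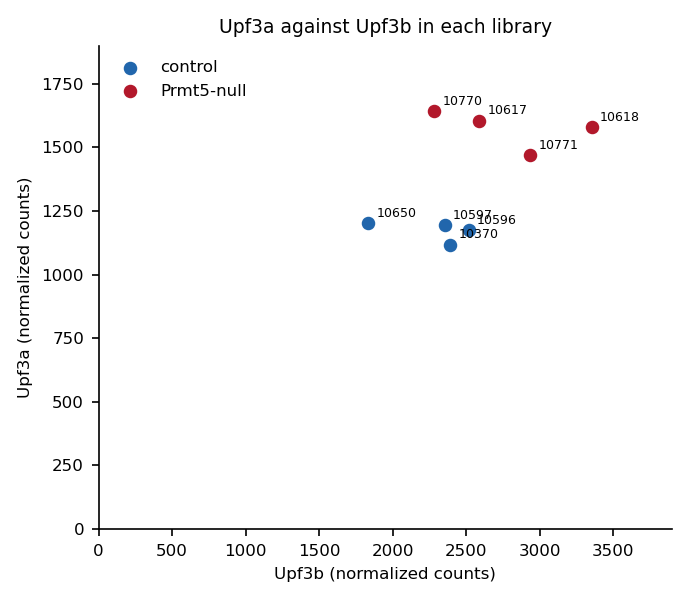
Normalized counts of Upf3a (y axis) against Upf3b (x axis), 1 point per library with its mouse number, both axes from 0. The Prmt5-null points (red) all lie above the controls (blue) on the Upf3a axis, whereas on the Upf3b axis they overlap from 2283 to 2517.

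The kinase Smg1 (chromosome 7, 118131308 to 118243670, minus strand, 62 introns) had 10546, 12961, 8777 and 12226 normalized counts in Prmt5-null and 12294, 10675, 11912 and 15229 in control libraries. Prmt5-null 10770 was lowest and control CTRL-10597 highest, as for Upf2. The fold was 0.886 (95% interval 0.725 to 1.08, adjusted p = 0.414, limma).

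Smg8 and Smg9 encode the partners that hold SMG1 in check. Smg8 (chromosome 11, 87077732 to 87086774, minus strand), with 3 introns, had 1623, 1375, 1588 and 1423 normalized counts in Prmt5-null and 1385, 1487, 1511 and 1504 in control libraries. Both the highest and the lowest value were from Prmt5-null iGBs, and the fold was 1.02 (95% interval 0.899 to 1.15, adjusted p = 0.866, limma).

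Smg9 (chromosome 7, 24399619 to 24422778, plus strand) had 1205, 1195, 994 and 1073 normalized counts in Prmt5-null and 1246, 1363, 1376 and 1340 in control libraries. Every Prmt5-null library was below every control, although 10617 was close to control CTRL-10650. The means were 1117 ± 102 and 1331 ± 58.7 (SD, n = 4), and the fold was 0.837 (95% interval 0.733 to 0.956). This did not pass the threshold over all genes (adjusted p = 0.0752, limma), whereas DESeq2 on the recovered reads gave an adjusted p = 0.0449, and the adjusted p over all alternatives ranged from 0.0449 to 0.177.

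The endonuclease Smg6 (chromosome 11, 74925823 to 75164448, plus strand) had 2565, 2522, 2370 and 2291 normalized counts in Prmt5-null and 2115, 2316, 2573 and 2483 in control libraries. Both extremes were controls. The fold was 1.03 (95% interval 0.909 to 1.17, adjusted p = 0.782, limma), and 126 of its exonic bases lie opposite Srr.

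The adaptor Smg5 (chromosome 3, 88336260 to 88362338, plus strand) had 6739, 6619, 5552 and 6175 normalized counts in Prmt5-null and 5847, 6145, 6775 and 6695 in control libraries. Prmt5-null 10770 was again the lowest, with full overlap otherwise. The fold was 0.984 (95% interval 0.867 to 1.12, adjusted p = 0.889, limma).

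**Figure D3:**
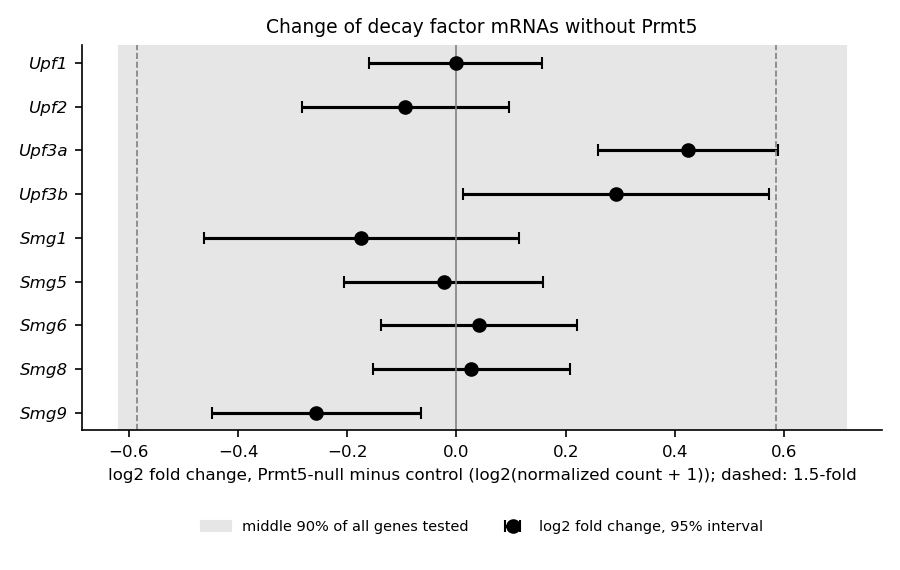
Log2 fold change of each factor, Prmt5-null minus control (x axis, on log2 of normalized count + 1), with 95% limma intervals, 1.5-fold lines (dashed) and, in grey, the middle 90% of all genes tested, from -0.62 to 0.71. The intervals of 8 factors lie inside 1.5-fold, and that of Upf3a reaches just past it.

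Set against all genes tested, the share of members called was not high. By adjusted p alone (limma), 1 of 9 (11.1%) was called, against 13.8% of all genes, with 6.51% higher and 7.33% lower. No member was called at 1.5-fold, against 6.48% of all genes (3.49% higher and 2.99% lower). At an unadjusted p below 0.05 there were 3 of 9, against 29.3%. DESeq2 called 2 of 9 by adjusted p and none at 1.5-fold, against 18.9% by adjusted p over all genes, and edgeR called 1. Groups did not overlap for 2 of 9 (22.2%), against 19.8% of all genes, with 1 higher (Upf3a, against 9.67%) and 1 lower (Smg9, against 10.2%). The 95% interval lay inside 1.5-fold for 8 of 9 members, and for 57.4% of all genes, a share that also depends on how well a gene is counted.

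The libraries differed in these factors beyond genotype. Prmt5-null 10770 was the lowest of the 8 for Upf2, Smg1, Smg5 and Smg9. In that library the longest 10% of genes (1598 genes with at least 9125 exonic bases) had a median log2 deviation from the gene means of -0.14, and the shortest 10% (1600 genes with at most 477) of 0.09. The difference of long minus short genes was -0.23 there, 0.15 in Prmt5-null 10618 and in control CTRL-10597, and between -0.07 and 0.05 in the other 5. Without Prmt5-null 10770 the log2 fold change of Upf3a was 0.40 (adjusted p = 0.00586, limma) and that of Smg9 -0.20 (adjusted p = 0.131, limma).

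Over the 8 libraries, Pearson's r with this long-minus-short difference was 0.86 for Upf2, 0.85 for Smg1 and 0.72 for Smg5, against -0.03 for Upf3a and -0.42 for Smg8. Upf2 and Smg1 also followed each other, with r = 0.97 over 8 libraries and 0.96 after removal of the genotype means. Smg5 and Smg6 had r = 0.76, and Upf3a and Smg9 had r = -0.82, which was -0.18 after removal of the genotype means. These points share libraries and their scaling, and the part of gene length in them was not tested.

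**Figure D4:**
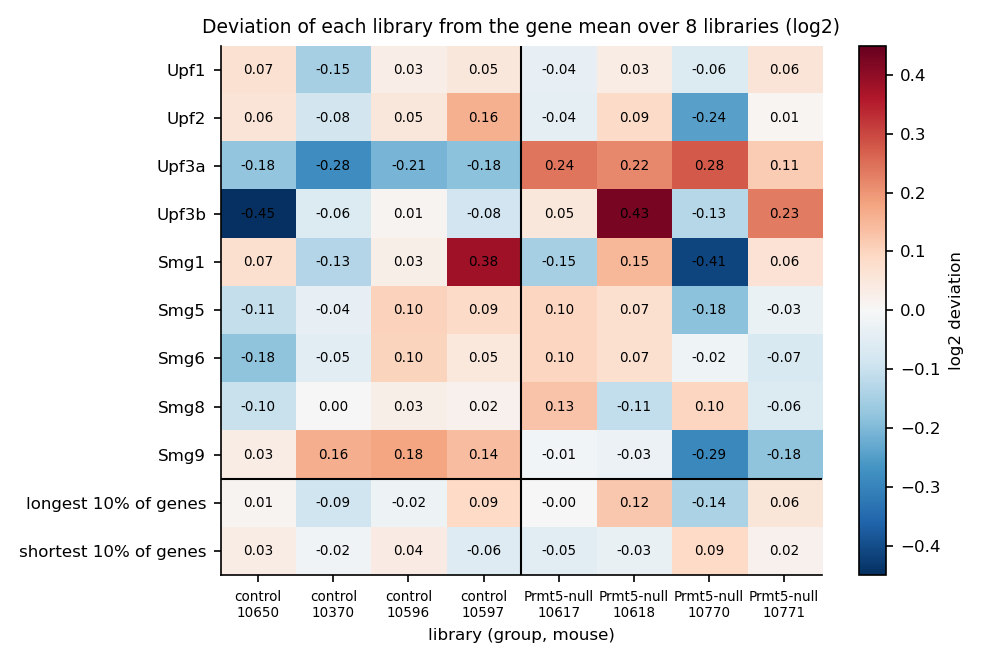
Log2 deviation of each library (columns) from the mean over 8 libraries for the 9 factors and for the median of the longest and shortest 10% of genes (rows below the line). Prmt5-null 10770 is low for Upf2 (-0.24), Smg1 (-0.41) and the longest genes (-0.14), while Upf3a divides the columns by genotype.

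Among 13299 genes with a mean above 50, 3 followed Upf3a most closely over the 8 libraries, namely Kif3b, a kinesin motor subunit (r = 0.990), Apmap (r = 0.986) and Ctnnal1 (r = 0.985). Kif3b had 3146 ± 113 normalized counts in Prmt5-null and 2552 ± 46.4 in control libraries (SD, n = 4), a log2 fold change of 0.30. For Ctnnal1 the log2 fold change was 0.40 and for Apmap 0.34. Because Upf3a divides the libraries by genotype, the choice by r fixes this direction. After removal of the genotype means r was 0.82 for Kif3b, 0.75 for Apmap and 0.84 for Ctnnal1, over the same 8 libraries from which they were chosen.

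The splicing tables list, for each event type, at most 1 event per gene with its inclusion level, the share of transcripts that hold the alternative part. They held 1918 events in 1519 genes, or 11.4% of the 13300 genes with a mean above 50. None was in the 9 NMD factors, which have 178 introns together in their longest coding transcripts and include Smg1 with 62. The tables hold selected events only, so no inclusion level can be given for the factors, and smaller changes in them were not analysed here. Smg1, Smg5 and Smg6 each have 1 annotated transcript of the NMD class.

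Protein-coding genes with such an NMD-class transcript were then taken as a whole, an alternative chosen after seeing the data. Of 12493 tested protein-coding genes, the 3604 that have one had a median log2 fold change close to that of the 8889 without (both within 0.01 of 0). Of the first, 7.63% were called higher and 9.91% lower (adjusted p below 0.05, limma), and of the second 7.85% and 7.96%. An event in the splicing tables was found in 21.8% of the first and 10% of the second among genes with a mean above 50. It was found in 17.6% of genes with an annotated retained-intron transcript and in 13.6% of all protein-coding genes. The classes were not matched for the number of annotated transcripts, so a tie of events to the NMD class was not tested. Protein-coding genes with at least 50% of their exonic bases only in retained-intron transcripts, the class of Upf3a, numbered 1002, and 7.49% were called higher and 7.29% lower, against 7.81% and 8.63% of the other 11491.

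The mRNAs of proteins that work with the NMD factors were counted in the same fit. Over 5 lists with 66 tested genes, 2 rose and 3 fell by adjusted p (7.58% called, against 13.8% of all genes), none of them at 1.5-fold (against 6.48%), and the median log2 fold change was 0.02. No gene was called among 9 of decapping and 5′ to 3′ decay, 14 of the exosome and Ski complexes and 17 of deadenylation. DESeq2 called 10 of the 66 (15.2%, against 18.9% of all genes), and limma called 2 to 5 with 1 library left out, fewer than 5 in each case except without Prmt5-null 10770.

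Of 10 genes of the exon junction complex, on which UPF3 proteins dock, 1 rose and 1 fell, against 6.51% higher and 7.33% lower of all genes. Rbm8a, which encodes the core subunit Y14, had 2686, 2376, 2960 and 2350 normalized counts in Prmt5-null and 3134, 3290, 3136 and 3169 in control libraries, without overlap. Its log2 fold change was -0.30 (SE 0.08, adjusted p = 0.0359, limma). Pnn, which encodes the outer component pinin, had 5513, 5573, 4103 and 5272 in Prmt5-null and 2714, 3273, 4174 and 4441 in control libraries, where 10770 overlapped the controls (log2 fold change 0.50, SE 0.15, adjusted p = 0.0454, limma).

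Of 16 other adaptors and termination factors, 1 rose and 2 fell, beside the same shares of all genes. Ncbp2, the small subunit of the nuclear cap-binding complex, rose from 1952 ± 136 to 2609 ± 182 normalized counts (SD, n = 4; log2 fold change 0.42, SE 0.08, adjusted p = 0.00575, limma). Nbas, which takes part in NMD at the endoplasmic reticulum and in vesicle transport, fell from 3848 ± 380 to 2807 ± 179 (log2 fold change -0.45, SE 0.09, adjusted p = 0.00596, limma). Gspt1, the release factor eRF3a, fell from 10903 ± 759 to 9064 ± 583 (log2 fold change -0.27, SE 0.08, adjusted p = 0.0409, limma). For all 3 genes, which were picked as called, the 4 and 4 libraries did not overlap. That held for 19.8% of all genes tested.

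Genes listed as having transcripts that NMD can remove did not move one way. Of 25 tested, 3 rose and 7 fell (40.0% called, against the 13.8% of all genes), and the median log2 fold change was -0.09. The list was chosen with earlier results of these data known, so these shares are not an independent comparison. One value per gene does not separate decay from transcription, or transcripts that NMD removes from others of the gene. Whether NMD changed was therefore not tested by this list. Chac1 and Asns, 2 of 25, were also called at 1.5-fold, both lower, against 6.48% of all genes (2.99% lower). The other 5 that fell were Ddit3, Atf4, Snhg1, Gas5 and Snhg5. Among the 15 not called, the log2 fold change was -0.63 for Trib3 (adjusted p = 0.179, limma), 0.08 for Atf3 (adjusted p = 0.886, limma) and -0.01 for Snhg12 (adjusted p = 0.971, limma). The number called was 4 without Prmt5-null 10771, 6 without Prmt5-null 10617, Prmt5-null 10618 or control CTRL-10650, and 7 to 9 without the others. Calls over all genes went from 2249 to 1374 without Prmt5-null 10771. They were 1692 without Prmt5-null 10617, 2216 without Prmt5-null 10618 and 1699 without control CTRL-10650.

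Chac1, an enzyme that degrades glutathione, had 146, 137, 172 and 151 normalized counts in Prmt5-null and 399, 365, 313 and 341 in control libraries. No library overlapped, and the log2 fold change was -1.22 (SE 0.13, adjusted p = 0.000177, limma). Asns, asparagine synthetase, had 2162, 1864, 3033 and 2482 against 4707, 4224, 2869 and 3115, with Prmt5-null 10770 above 1 control (log2 fold change -0.64, SE 0.17, adjusted p = 0.0306, limma). Ddit3, which encodes CHOP, had a log2 fold change of -0.54 and Snhg1 of -0.49, both without overlap, which held for 19.8% of all genes tested.

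Ptbp2, whose mRNA is an NMD substrate when an exon of it is skipped, rose from 852 ± 158 to 1205 ± 216 normalized counts (SD, n = 4; log2 fold change 0.50, SE 0.15, adjusted p = 0.0411, limma), with overlap. The ribosomal protein gene Rpl12 (0.39) and the SR protein gene Srsf7 (0.31) were the others called higher on the log2 scale.

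**Figure D5:**
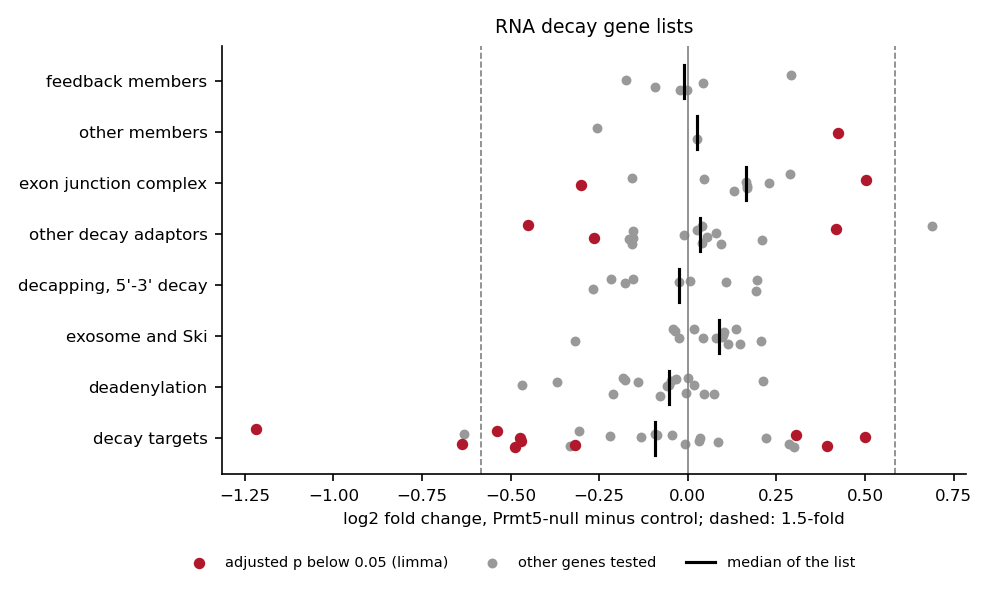
Log2 fold change, Prmt5-null minus control (x axis), of each tested gene by list, with genes at an adjusted p below 0.05 in red, the list median as a bar and 1.5-fold lines dashed. Medians lie between -0.09 and 0.16, and the spread is widest among the decay targets.

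Of the genes in these lists, 20 events stood in the splicing tables. They fell in 10 of the 65 machinery genes with a mean above 50 (15.4%) and in 5 of the 25 decay targets, against the 11.4% of all genes. These lists, too, were chosen with earlier results of these data known. The inclusion levels are the authors' values in lists of 4 per genotype without library names, given here as means with no SD. Which list is the control was inferred from the paper's wording, as set out below.

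The helicase gene of the Ski complex, Skiv2l, had a retained intron at a mean inclusion level of 0.202 in control and 0.472 in Prmt5-null iGBs, with 0.261 as the highest control and 0.407 as the lowest Prmt5-null value. Stau1, an RNA-binding protein that recruits UPF1 to other mRNAs, had a change of 3′ splice site from 0.482 to 0.287. Gas5 carried 4 events, among them a skipped exon from 0.406 to 0.175 and a retained intron from 0.657 to 0.800. Of the 20 events, 2 had a difference of at least 0.25, those of Skiv2l and, by junction reads only, of the ATPase gene Ruvbl2.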

How the data were processed

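Per the submitters' processing notes and the study's methods, the authors trimmed reads with Trimmomatic 0.32, aligned them to GRCm38 with STAR 2.3.0e, counted them on exons of Ensembl genes with featureCounts 1.4.4 and deposited a normalized signal, the count divided by the DESeq2 1.14.1 size factor. The deposited rMATS tables hold inclusion levels and reads as lists of 4 per genotype. The genotypes are numbered there, not named, and the first was taken as control. That choice rests on the paper, which gives the difference of inclusion levels as WT/KO. The tables also hold p-values and differences, which were not used.

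All values (100%) were whole reads within 0.01 reads after rescaling. The genotypes were compared with limma 3.58.1 (eBayes with trend, R 4.3.3) for genes whose mean reached 10, after adding a pseudocount of 1 and taking log2, and p-values were adjusted by Benjamini-Hochberg. edgeR 4.0.16 and DESeq2 1.42.0 on recovered reads were alternatives, as were other pseudocounts, filters and scalings, each library left out, and the experiment as a block in 18 placements. The fit was tested on simulated counts. Single values were compared by exact permutation. Lists were described, not tested. Annotation was GENCODE M21, with promoters from RefSeq.

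The members and lists were chosen with earlier results of these data known. All members are named, with Prmt5, at most the 5 largest called changes of a list and the 3 genes most like Upf3a. Genes named beyond these (Atf4, Gas5, Snhg5, Rpl12, Srsf7, Trib3, Atf3, Snhg12) and the splicing events named were chosen after their values were seen.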

Additional observations from a re-analysis of the deposited data

How the results depend on the processing

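Upf3a stayed called under all 18 alternatives, and no member was called at 1.5-fold under any. Over the 9 members, 147 of 162 alternative values kept their direction and their side of the threshold. Members called went from 1 to 2 with DESeq2 and in the highest of 18 experiment placements. In both Smg9 passed, at a log2 fold change of -0.25 with DESeq2 and -0.26 in that placement (adjusted p = 0.0489, limma, 1 of 18 placements). Of uncalled members, Upf1 had a log2 fold change of 0.0036 under quantile normalization, and with 1 library left out ranged from -0.051 to 0.021, Smg5 from -0.063 to 0.034, Smg6 from -0.012 to 0.082 and Smg8 from -0.011 to 0.068.

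Genes called by adjusted p alone numbered 2249, and 1374 without Prmt5-null 10771 (up to 2371 without Prmt5-null 10770). Machinery genes called went from 5 to 3 with no filter, 3 with no trend (chosen after seeing the data), 10 with DESeq2, and 2 to 8 over the placements. They were 2 to 5 with 1 library left out, and lower than 5 without any library other than Prmt5-null 10770. Decay targets called went from 10 to 5 with no trend, 11 with DESeq2, and 6 to 12 over the placements. They were 4 to 9 with 1 library left out, lowest without Prmt5-null 10771, and 6 without Prmt5-null 10617 or 10618 or control CTRL-10650. Splicing events fell from 20 to 2 at a difference of at least 0.25. The cause of these changes was not tested.

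No paired analysis was possible because the mouse numbers are not shared between genotypes and no label ties a library to 1 of the 2 experiments. Other scalings moved the overall median by less than 0.1 (log2). Rank of the members by level depends on the annotation, and inclusion levels of the members were not analysed here.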
